A study of Papio anubis with 8 samples.

Results

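Mitochondrial ribosomal proteins were followed across 8 RNA-seq libraries of fetal baboon hippocampus. They were taken as the rows of the gene table whose symbol starts with MRPL (large subunit) or MRPS (small subunit) followed by a number, which gave 74 genes of 37053, 45 of the large and 29 of the small subunit. The mitochondrial ribosome is the machine in the mitochondrial matrix that translates the few messages of the mitochondrial genome, all of them for subunits of the respiratory chain and the ATP synthase. Its proteins are made from nuclear genes and imported, while its ribosomal RNA comes from the mitochondrial genome. The large subunit joins amino acids and holds the exit tunnel, and the small subunit binds the message and reads its codons. Neurons depend on respiration for firing and synaptic transmission, and inherited defects of several of these proteins cause brain or heart disease in people.

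The tissue was hippocampus of the olive baboon (Papio anubis), from fetuses at 0.9 of term, and strand-specific libraries were built from 25 ng of total RNA. The study set out to compare fetuses of mothers differing in adiposity and leptin. The labels give no library a maternal group, so AMB3, AMB4, AMB5, AMB6, AMB7, AMB8, AMB9 and AMB10 were treated as unassigned, with no comparison and no test of groups. The title of AMB3 carries another ending (L1000) than the other 7 titles, and whether the 8 libraries stand for 8 fetuses is not stated.

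The libraries held 40404878 (AMB9) to 71648654 (AMB10) counts, and the members took 0.236% (AMB7) to 0.277% (AMB8) of them. All 5 hippocampal markers looked for (PROX1, ZBTB20, FIBCD1, NEUROD6 and WFS1) were detected in every library. FIBCD1, a marker of the CA1 field in mice, stood at 400.1 CPM in AMB8 and 367 CPM in AMB10, and between 9.01 CPM (AMB5) and 84.1 CPM (AMB3) in the other 6 libraries. CPM is the count scaled to a library of 1000000, with library sizes adjusted by edgeR's TMM method (a trimmed mean of log ratios). It is not divided by transcript length, so an order of genes by CPM served only to choose which to describe and says nothing of which gene has more transcripts.

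All 74 members passed the filter on low counts, as did 16874 genes in all. They lie on 19 chromosomes of the assembly Panubis1.0, with 8 members each on chromosomes 1 and 17. No row carried the symbol MRPL28, MRPL48, MRPL53 or MRPL57, and these proteins are not analysed here as members. RefSeq lists MRPL48 as another name of LOC101014834, whose level lay between 27.5 CPM (AMB6) and 36.7 CPM (AMB3). Outside MRPS24, which had 14 to 35 counts per library, no member had fewer than 247 counts in any library.

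The levels of these genes varied little from library to library. The log2 range of a gene, its highest minus its lowest log2 CPM over the 8 libraries, had a median of 0.45 over the 74 members, against 0.77 over all 16874 tested genes. A range of at least 0.5 was found in 27 of 74 members (36.5%), beside 74.96% of all tested genes. A range of at least 1, a doubling between the lowest and the highest library, was found in 2 of 74 members (2.70%), beside 36.1% of all tested genes.

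Genes at low counts spread more, so the same was counted within the band of 10 to 100 CPM in the median library, which held 72 members and 8043 genes. There the members' median range was 0.45 and that of the tested genes 0.61. A range of at least 0.5 was found there in 26 of 72 members (36.1%), beside 65.2% of the genes. A range of at least 1 was found in 1 of 72 members (1.39%), beside 20.7% of the genes. The narrow spread of the members was therefore also seen at like counts.

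**Figure D1:**
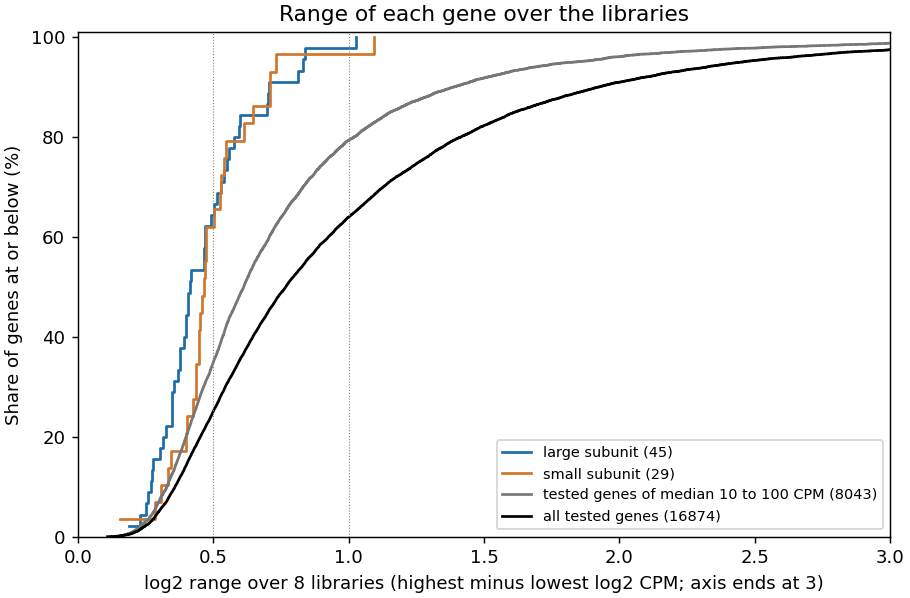
Cumulative share of genes (y axis, percent) by log2 range over the 8 libraries (x axis, highest minus lowest log2 CPM, ending at 3), for the 45 large subunit genes, the 29 small subunit genes, the 8043 tested genes of median 10 to 100 CPM and all 16874 tested genes. Both subunit curves rise to the left of the 2 background curves, with medians of 0.42 (large) and 0.47 (small) against 0.61 and 0.77.

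The subunits had much the same spread. The median log2 range was 0.42 in the large and 0.47 in the small subunit. A range of at least 0.5 was found in 16 of 45 large subunit genes and in 11 of 29 small subunit genes, and 1 gene of each passed 1. A range under 0.3 was found in 7 large and 2 small subunit genes, 9 of 74 members (12.2%), beside 5.08% of all tested genes. Split by origin, the median range was 0.40 over 29 large subunit proteins with a bacterial homolog and 0.46 over 18 large subunit proteins classed here as mitochondria-specific. In the small subunit it was 0.47 over 16 proteins with a bacterial homolog and 0.46 over 10 mitochondria-specific ones. In this split MRPS30 and MRPS18A are counted in the large subunit, where they sit in the mammalian structure despite their names, and MRPS36 is left out. MRPS18A and MRPS18B are classed as mitochondria-specific although they are paralogs of bacterial S18, so that class is not free of proteins with bacterial relatives.

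The members did share a small library-to-library pattern. A score was computed for each library as the median over genes of log2 CPM minus that gene's own median over the 8 libraries. Over all 74 members it was 0.04 in AMB3, -0.11 in AMB4, 0.12 in AMB5, -0.04 in AMB6, -0.11 in AMB7, 0.11 in AMB8, -0.04 in AMB9 and -0.00 in AMB10. AMB5 and AMB8 were thus highest, and AMB4 and AMB7 lowest. The whole span was 0.24, or 1.18-fold. The same median over all tested genes lay between -0.01 (AMB5) and 0.01 (AMB8). The scaling of library sizes keeps that median near 0, so it does not show how far the score of a list of genes can move. In bulk tissue, fewer cells of a type and less RNA per cell cannot be told apart.

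The shift ran through most members rather than a few. In AMB8, 64 of 74 members lay above their own median, and in AMB5, 60 of 74 did. In AMB7, 10 of 74 lay above it, and in AMB4, 14 of 74. Over all tested genes the share above the median was 52.5% in AMB8, 48.8% in AMB5, 48.8% in AMB7 and 50.2% in AMB4.

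The same can be read from where each gene peaked. AMB5 was the highest library for 26 of 74 members (35.1%), beside 16.4% of all tested genes, and AMB8 for 16 (21.6%), beside 12.01%. No member was highest in AMB7, which was highest for 15.5% of all tested genes. AMB7 was the lowest library for 24 members (32.4%), beside 15.1% of all tested genes, and AMB4 for 16 (21.6%), beside 6.48%. No member was lowest in AMB8, which was lowest for 12.3% of all tested genes. The counts for AMB5 and AMB8 depend on scaling. On plain library totals, 12 members were highest in AMB5, beside 10.2% of all tested genes, and 24 in AMB8, beside 14.5%. AMB8 then had the highest score, 0.13 against 0.06 in AMB5. On those totals the median of all tested genes in AMB5 shifted to -0.05. With DESeq2 size factors, 27 members were highest in AMB5 and 12 in AMB8, and the shares over all tested genes were not computed.

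AMB6 was the highest library for 12 members (16.2%), beside 12.1% of all tested genes, a share near the background. These were MRPL11, MRPL12, MRPL14, MRPL34, MRPL38, MRPL41 and MRPL54 of the large subunit, and MRPS2, MRPS12, MRPS18B, MRPS26 and MRPS34 of the small subunit. MRPL34 had 60.5 CPM in AMB6 and 57.5 CPM in AMB5, against 45.9 to 48.5 CPM in the other 6 libraries. MRPS12, homolog of a protein of the decoding centre, had 36.7, 41.1 and 46.5 CPM, and MRPS2 had 36.3, 40.0 and 47.8 CPM. AMB3 was highest for 9 members (12.2%), beside 11.1% of all tested genes, and AMB10 for 6 (8.11%), beside 16.7%. AMB9 was highest for 4 (MRPL3, MRPL30, MRPL58 and MRPS30, 5.41%), beside 8.93%, and AMB4 for 1 (MRPL49, 1.35%), beside 7.30%.

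**Figure D2:**
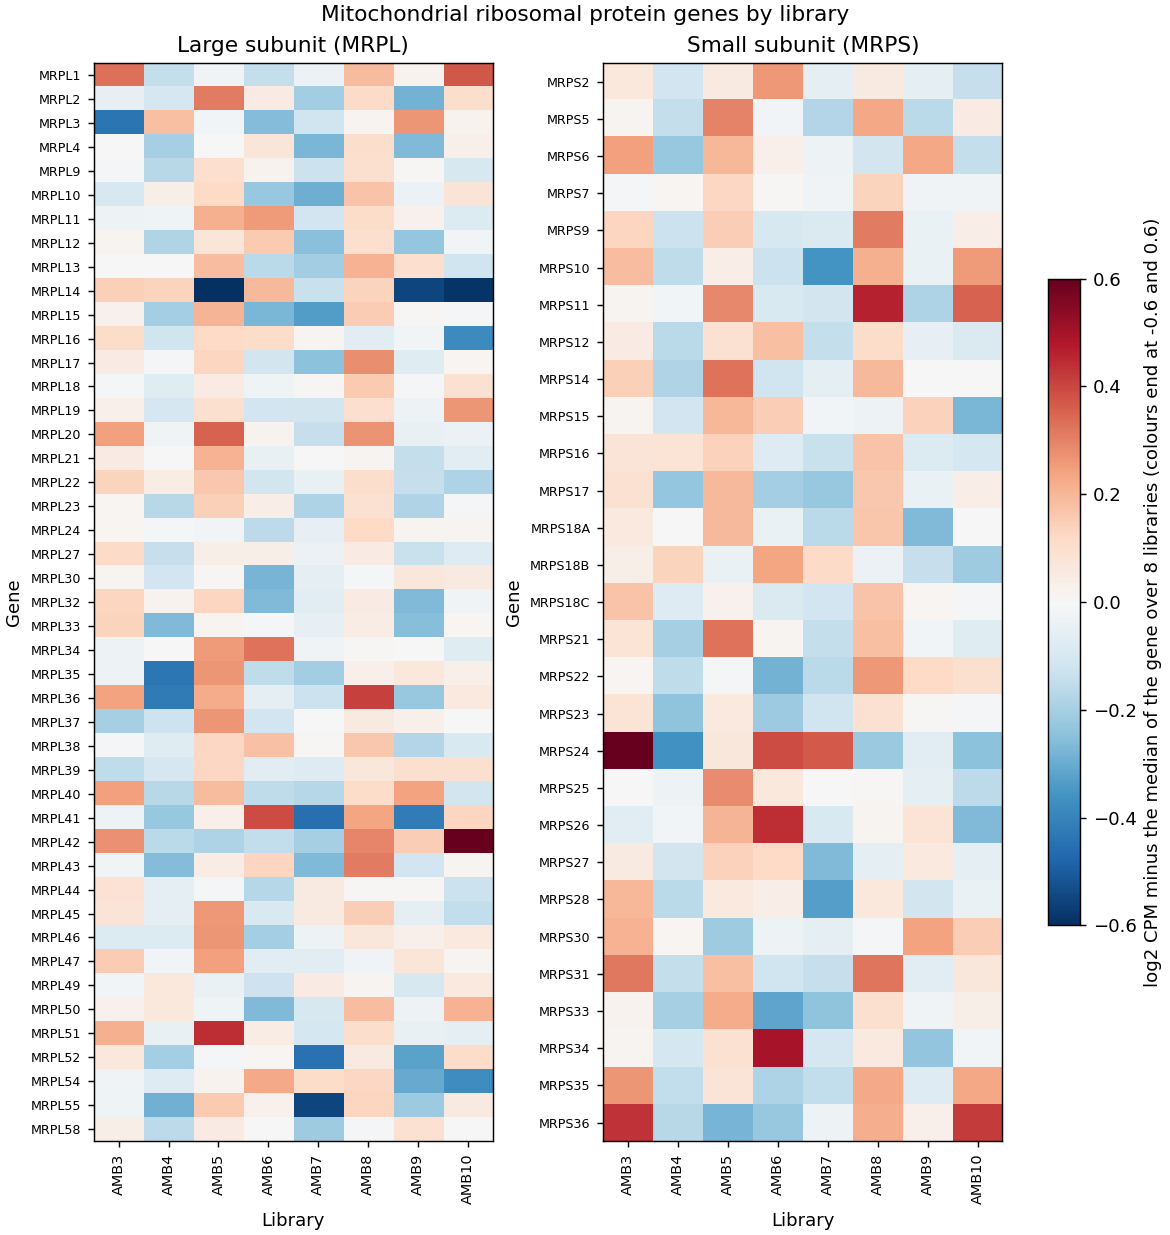
Each row is a gene (45 large subunit genes in the left panel, 29 small subunit genes in the right) and each column a library; colour gives log2 CPM minus the gene's median over the 8 libraries, red above and blue below, ending at -0.6 and 0.6. The columns of AMB5 and AMB8 are mostly red (60 and 64 of 74 members above their median) and those of AMB4 and AMB7 mostly blue (14 and 10 of 74), while MRPL14, MRPS24, MRPS18B and MRPL3 differ from their columns.

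The large and the small subunit kept close together. The large subunit score was 0.02 in AMB3, -0.10 in AMB4, 0.12 in AMB5, -0.06 in AMB6, -0.11 in AMB7, 0.10 in AMB8, -0.04 in AMB9 and 0.01 in AMB10. The small subunit score was 0.08 in AMB3, -0.14 in AMB4, 0.14 in AMB5, -0.03 in AMB6, -0.11 in AMB7, 0.13 in AMB8, -0.04 in AMB9 and -0.01 in AMB10. The span was 0.23 (1.17-fold) for the large and 0.28 (1.21-fold) for the small subunit.

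The difference between the subunits was taken within each library. Large minus small was lowest in AMB3, at -0.06, and highest in AMB4, at 0.04, a span of 0.10, or of 0.07 on plain library totals. In the other 6 libraries it lay between -0.03 and 0.02. In AMB3, 28 of 45 large subunit genes (62.2%) and 27 of 29 small subunit genes (93.1%) lay above their own median, beside 50.4% of all tested genes, the widest gap between the subunits. With MRPS30 and MRPS18A moved to the large subunit and MRPS36 left out, the difference spanned 0.11, with AMB3 and AMB4 still at its ends.

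**Figure D3:**
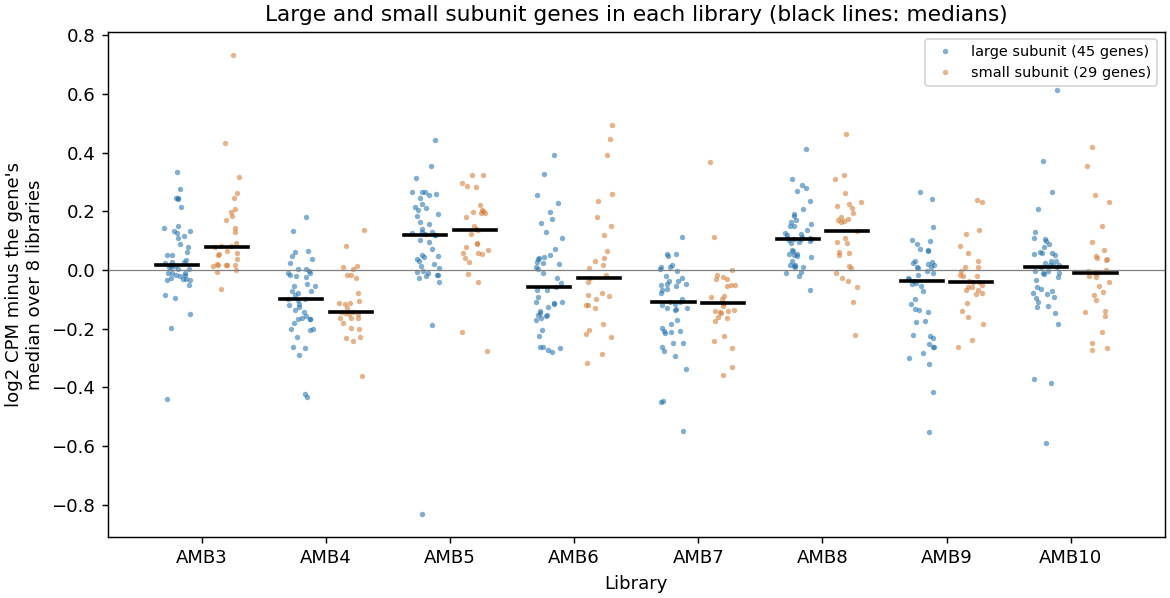
Log2 CPM minus the gene's own median over 8 libraries (y axis) for each library (x axis), with 1 point per gene, the 45 large subunit genes left and the 29 small subunit genes right in each pair, and black lines at the medians. The 2 lines are at most 0.06 apart (AMB3), and both are highest in AMB5 (0.12 and 0.14) and AMB8 (0.10 and 0.13).

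Pairs of members also tended to rise and fall over the same libraries. Over the 2701 pairs of members the median Spearman rho across the 8 libraries was 0.36, and 79.8% of pairs were positive, while the median over all pairs of tested genes was 0. The median was 0.32 for pairs within the large subunit, 0.40 for pairs within the small subunit and 0.38 for pairs across them. The pairs across the subunits thus stood between the pairs within the large and within the small subunit. These are descriptions over 8 points that share the same libraries, scaling and depth.

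Each member was also set against the score of all the others. The rho was positive in 42 of 45 large and 27 of 29 small subunit genes. It was closest to 1 in MRPS17 (1), MRPS14 (0.98) and MRPS9 (0.95), all homologs of bacterial small subunit proteins. The 5 members below 0 were MRPS18B (-0.57), MRPL49 (-0.31), MRPL14 (-0.26), MRPL3 (-0.19) and MRPS30 (-0.10). MRPL3, whose bacterial homolog reaches towards the peptidyl transferase centre, was lowest in AMB3 at 23.2 CPM and highest in AMB9 at 37.7 CPM. MRPL3 and the 3 top genes were singled out after their values were seen.

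Among the large subunit genes, the 5 chosen for their high median CPM moved moderately. MRPL30 (chromosome 14, 103635099 to 103660323) had a lowest, median and highest level of 66.2, 80.4 and 84.2 CPM, with AMB6 lowest. MRPL37, a mitochondria-specific protein, had 62.2, 71.4 and 85.8 CPM, with AMB5 on top. MRPL43 had 49.4, 59.3 and 73.7 CPM, MRPL15 had 45.7, 57.7 and 66.4 CPM, and MRPL24, a protein of the exit tunnel region, had 45.1, 50.3 and 54.7 CPM. AMB5 or AMB8 was the highest library for 4 of these 5 genes, and AMB9 for MRPL30. The range of MRPL37 was 0.46 over all libraries and 0.25 without AMB5, and that of MRPL30 was 0.35 and 0.18 without AMB6. MRPL24 had a range of 0.28, and of 0.17 without AMB6.

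The stalk of the large subunit recruits the translation factors. MRPL12, the multi-copy stalk protein, had 35.1, 41.7 and 46.6 CPM as its lowest, median and highest levels, and MRPL10, which anchors it, had 23.3, 28.6 and 32.2 CPM. MRPL11, at the stalk base, had 25.7, 27.9 and 33.3 CPM. All 3 were lowest in AMB7. MRPL11 and MRPL12 were highest in AMB6, and MRPL10 in AMB8. MRPL58, also known as ICT1, is built into the large subunit and can release stalled peptides. It had 10.5, 12.2 and 13.0 CPM, with a range of 0.30.

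The widest range of the large subunit was that of MRPL14 (chromosome 6, 42540045 to 42554099), whose bacterial homolog lies at the interface between the subunits. It had 15.2 CPM in AMB3, 15.1 in AMB4, 7.72 in AMB5, 15.8 in AMB6, 12.6 in AMB7, 15.1 in AMB8, 9.37 in AMB9 and 9.14 in AMB10. The range was 1.03, or 2.04-fold. The 95% exact Poisson intervals of counting error, 6.92 to 8.60 CPM in AMB5 and 14.7 to 16.9 CPM in AMB6, lay far apart. AMB5, where most members were high, was the lowest library for this gene.

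Another row of the table bears on MRPL14. LOC110743212 on chromosome 3 (109091209 to 109091834) is a pseudogene that RefSeq describes as this same protein, and it was highest where MRPL14 was lowest, at 15.3 CPM in AMB5, against 6.20 to 9.59 CPM in the other 7 libraries. Its share of the summed counts of both rows was 66.4% in AMB5 and between 29.1% (AMB4) and 48.4% (AMB9) elsewhere. The sum of both rows lay between 17.5 CPM (AMB10) and 23.0 CPM (AMB5), and its range was 0.40 in place of 1.03. The rows were matched by description and not by sequence, and how the authors' counting divided reads between them is not given in the sources used here. MRPL14 also overlaps TMEM63B on the opposite strand by 635 bases.

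MRPL41, MRPL36, MRPL42 and MRPL55 followed with ranges of 0.84, 0.83, 0.81 and 0.71. MRPL41 had 16.3 CPM in AMB7 and 16.7 CPM in AMB9 at the low end, a median of 22.3 CPM, and 29.3 CPM in AMB6 at the top. MRPL36, the homolog of a small bacterial protein, had 13.3 CPM in AMB4, a median of 17.8 CPM and 23.7 CPM in AMB8. MRPL42 had 16.6 to 17.2 CPM in AMB4, AMB5, AMB6 and AMB7, 21.1 to 23.3 CPM in AMB3, AMB8 and AMB9, and 29.2 CPM in AMB10. Without AMB10 its range was 0.49. MRPL55 had 16.8 CPM in AMB7, a median of 24.7 CPM and 27.5 CPM in AMB5, and without AMB7 its range was 0.45. The steadiest large subunit genes were MRPL49, with 21.9, 23.9 and 24.9 CPM and a range of 0.19, and MRPL18, with 38.9, 40.9 and 45.6 CPM and a range of 0.23.

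MRPL16, whose bacterial homolog contacts the incoming tRNA, is described for a single library. It had 43.2 to 51.0 CPM in 7 libraries and 36.0 CPM in AMB10. Its range of 0.50 was 0.24 without AMB10.

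Among the small subunit genes, MRPS18B, MRPS6, MRPS35, MRPS33 and MRPS9 were chosen for their high median CPM. MRPS6, homolog of a protein of the platform, had a lowest, median and highest level of 51.2, 59.9 and 71.0 CPM. MRPS6 shares 32510 bases on the same strand with SLC5A3, an inositol transporter gene, so its reads could be divided between the 2 rows. MRPS35 had 51.9, 59.0 and 70.7 CPM, and the 3 highest libraries were AMB3, AMB10 and AMB8. MRPS33 had 45.6, 56.9 and 66.3 CPM, and MRPS9, homolog of a head protein that reaches the tRNAs, had 47.5, 52.0 and 64.4 CPM. MRPS33 was highest in AMB5 and MRPS9 in AMB8. The range of MRPS9 was 0.44, and 0.28 without AMB8.

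The 3 paralogs of bacterial S18 did not move together. MRPS18C, which takes the place of the bacterial protein, had 5.70, 6.17 and 6.95 CPM and a range of 0.28, among the narrowest of the small subunit. It had 247 to 465 counts per library, and no Poisson interval was computed for it. MRPS18A, which sits in the large subunit, had 31.6, 38.0 and 43.5 CPM, lowest in AMB9 and highest in AMB5. MRPS18B (chromosome 6, 30249992 to 30259017) had 63.3 CPM in AMB3, 67.8 in AMB4, 60.0 in AMB5, 72.7 in AMB6, 66.8 in AMB7, 60.2 in AMB8, 56.0 in AMB9 and 53.3 in AMB10. It was above its median in AMB4 and AMB7, where most members were low, and below it in AMB5 and AMB8, where most were high. Against the score of the other members, rho was 0.83 for MRPS18C, 0.69 for MRPS18A and -0.57 for MRPS18B. MRPS18B overlaps the opposite-strand gene PPP1R10 by 1 base, with a rho of -0.43 between the 2 levels.

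MRPS24 (chromosome 4, 113710596 to 113713910), homolog of a protein at the entry of the message channel, had the widest range of all members, 1.09, at very few counts. It had 0.641 CPM in AMB3, 0.282 in AMB4, 0.392 in AMB5, 0.499 in AMB6, 0.491 in AMB7, 0.314 in AMB8, 0.353 in AMB9 and 0.308 in AMB10. The 95% exact Poisson intervals of AMB3 (0.419 to 0.939 CPM) and AMB4 (0.167 to 0.445 CPM) overlap. Between 96.0% (AMB3) and 97.9% (AMB4) of the summed counts of this protein stood in another row, LOC116271660 on chromosome 20, a gene annotated as protein-coding and described as the same protein. That row lay between 12.7 CPM (AMB10) and 16.6 CPM (AMB5). The sum of both rows had a range of 0.39.

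MRPS34, MRPS36, MRPS26 and MRPS11 followed with ranges of 0.73, 0.71, 0.71 and 0.65. MRPS34 is a mitochondria-specific protein whose loss causes Leigh syndrome, a disease of the infant brain. It had 65.9 CPM in AMB6 and 39.7 to 49.8 CPM in the other 7 libraries. The Poisson interval in AMB6 (63.7 to 68.1 CPM) lay above that in AMB5, the next library (47.7 to 52.0 CPM). Without AMB6 the range was 0.33. MRPS26 was also highest in AMB6, at 55.7 CPM, against 34.1 to 47.1 CPM elsewhere, and its range without AMB6 was 0.47. MRPS36, now known as KGD4 and a part of the 2-oxoglutarate dehydrogenase complex of the citric acid cycle, had 45.6 CPM in AMB3 and 45.2 CPM in AMB10, and 27.9 to 39.2 CPM in the other 6 libraries. MRPS11, homolog of a platform protein, had 44.1 CPM in AMB8, 40.9 CPM in AMB10 and 39.0 CPM in AMB5, and 28.1 to 32.3 CPM in the others.

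MRPS7, homolog of a protein in the head of the subunit near the tRNAs, was the steadiest member. It had 39.2, 39.8 and 43.7 CPM, and its range was 0.16, or 1.11-fold. MRPS30, a large subunit protein in the structure, had 20.3, 23.5 and 27.8 CPM, lowest in AMB5 and highest in AMB9. The members not described singly had ranges between 0.25 (MRPL27) and 0.70 (MRPL35).

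Rows that carry the same protein's name were a wider feature of this gene family. In all, 65 other rows were described as a mitochondrial ribosomal protein, 62 of them as 1 of the 74 members, and 36 members had such a row. Of these rows 18 passed the filter, and 15 members had at least 1 that did. In 9 members the other rows held more than 10% of the summed counts in some library. Besides MRPL14 and MRPS24, these were MRPL49, with 39.3% to 44.8% of the summed counts in the other row, MRPS18C with 42.8% to 48.3%, MRPL47 with 29.3% to 32.8%, MRPS31 with 19.3% to 30.0%, MRPS21 with 20.1% to 24.6%, MRPS22 with 17.8% to 22.5%, and MRPL40 with 15.4% to 18.6%. In these 7 the share moved much less between libraries than in MRPL14, and the levels of all 9 are uncertain to the extent that reads can be placed in either row.

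**Figure D4:**
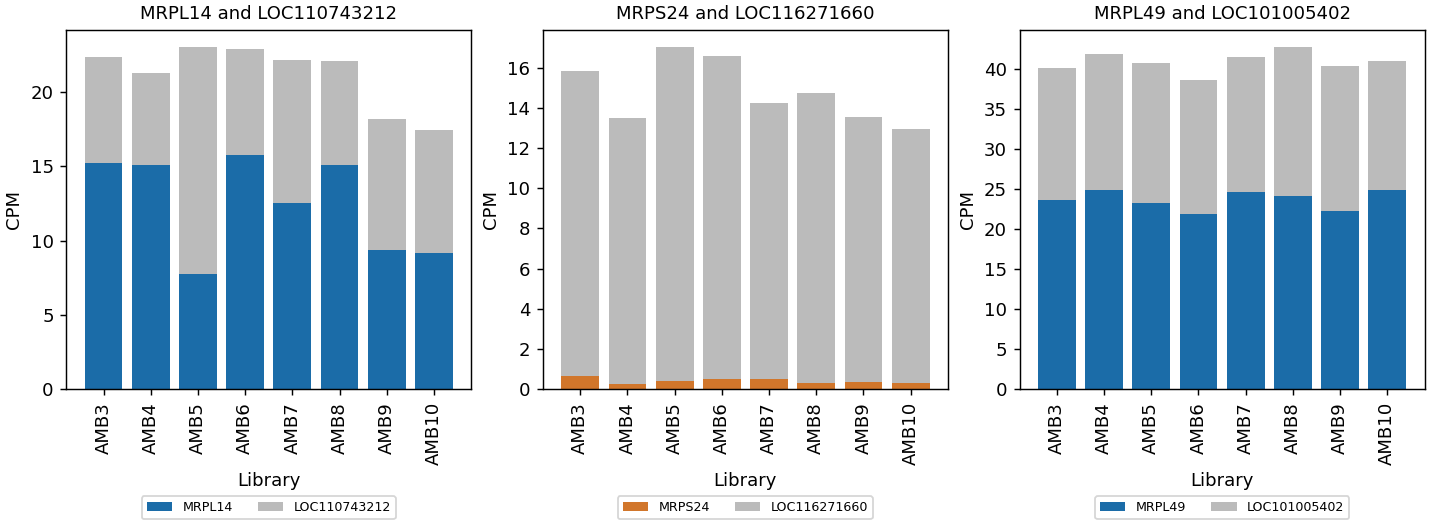
Stacked bars of CPM (y axis) by library (x axis) for 3 members, coloured, and the other row described as the same protein, grey, stacked on top. The grey part for MRPL14 reaches 66.4% of the sum in AMB5, it makes up between 96.0% and 97.9% for MRPS24, and for MRPL49 it keeps between 39.3% and 44.8%.

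The nearest genes of the members were also looked at, without the same counts over all tested genes, so no share can be called high or low. In the deposited coordinates 23 members overlap another gene, 16 of them a tested one, and 31 start within 1000 bases of the start of a gene that runs the other way (head to head, with or without an overlap of the starts). Over the 27 members whose head-to-head neighbour was tested, the median rho across the 8 libraries was 0.07. MRPS11 and MRPL46, both members, start head to head on chromosome 7 and overlap by 9 bases, with a rho of 0.52. MRPL50 and the zinc finger gene ZNF189, 7 bases apart, had a rho of 0.93. MRPL49 and FAU, a gene of the cytosolic ribosome 22 bases away, had a rho of -0.88, at a range of 0.19 in MRPL49. These pairs were singled out after their values were seen. Whether the authors' counting used the strand of the reads is not given in the sources used here, so reads in an overlap may have been counted for either gene.

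Of 5 other lists of mitochondrial gene expression, 3 spanned more than the 0.24 of the members and 2 spanned less. These lists hold 4 to 24 tested genes against 74 members, and the 3 of wider span are the smallest. A median over fewer genes varies more, so the spans are not compared at like size. The median log2 range of single genes was 0.45 to 0.49 in the 5 lists and 0.45 in the members. The mitoribosomal proteins with other symbols (5 of 5 tested) had a score that spanned 0.36, from -0.14 in AMB7 to 0.22 in AMB5. PTCD3 had 80.8, 85.7 and 95.9 CPM, DAP3, a small subunit GTPase, had 45.0, 51.5 and 62.4 CPM, and AURKAIP1 had the widest range of these, 0.85. The score of 24 tested factors of mitoribosome assembly, of 26 listed, spanned 0.12, from -0.04 in AMB10 to 0.08 in AMB5. NGRN had 179.9, 256 and 288 CPM, the helicase DHX30 had 123, 135 and 142 CPM, and RPUSD3 had the widest range, 0.95, with 19.1 CPM in AMB10 and 37.0 CPM in AMB5.

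Translation factors and partners (12 tested of 14) spanned 0.30, highest in AMB3 at 0.10 and lowest in AMB6 at -0.19. LRPPRC, which stabilises mitochondrial messages, had 256, 319 and 379.9 CPM, the elongation factor TUFM had 133, 149.5 and 164 CPM, and the membrane insertase OXA1L had a range of 0.73. The 17 aminoacyl-tRNA synthetases of mitochondria spanned 0.23, from -0.14 in AMB6 to 0.09 in AMB8. VARS2 had 54.9, 59.1 and 65.1 CPM, AARS2 had 51.5, 57.7 and 66.5 CPM, and NARS2 had a range of 0.80 with its lowest level, 10.7 CPM, in AMB9. Mitochondrial transcription (4 tested of 5) spanned 0.30 and was lowest in AMB5, at -0.18, where the mitoribosomal proteins were highest. TFAM, which packs mitochondrial DNA and starts its transcription, had 20.9 CPM in AMB5, a median of 28.1 CPM and 36.0 CPM in AMB3. TFB2M, its partner in promoter opening, had 13.6, 16.3 and 17.7 CPM.

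The products and partners of mitochondrial translation showed wider spans than the 0.24 of the 74 members. Here too the lists hold fewer genes than the members, so the spans are not compared at like size. The 13 mitochondrially encoded genes spanned 0.63, from -0.40 in AMB7 to 0.23 in AMB5. All 13 had a range of at least 0.5, beside 74.96% of all tested genes. Their median range was 0.65, against 0.77 over all tested genes. COX1 had 5638 CPM in AMB7, a median of 7333 CPM and 8830.2 CPM in AMB3, CYTB had 2507, 3335 and 3946 CPM, and ND6 had the widest range, 1.74, with 144 CPM in AMB9. The 56 nuclear respiratory chain and ATP synthase subunits tested, of 75 listed, spanned 0.39, with AMB5 at 0.20 and AMB7 at -0.20. Gene by gene they were about as steady as the members, with a median range of 0.47 against 0.45. ATP5F1B had 717, 819.7 and 923 CPM, ATP5F1A had 600.1, 674 and 755 CPM, and NDUFAB1 had a range of 1.42 at 1.05 CPM or less. AMB5 was highest and AMB7 lowest for both lists, as for the large mitoribosomal subunit.

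Cytosolic ribosomal proteins followed another order. The 70 tested, of 77 listed, spanned 0.48, highest in AMB6 at 0.18 and lowest in AMB10 at -0.30, and in AMB8 the mitoribosomal proteins stood at 0.11 and the cytosolic ones at -0.09. RPL15 had 449.9, 536 and 623 CPM, RPL13A had 291, 387 and 467 CPM, and RPL23A had the widest range, 4.96, with 1.31 CPM in AMB9. Other rows of the same protein were looked for only among the mitoribosomal proteins. The ranges of RPL23A and NDUFAB1 are given without that check.

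**Figure D5:**
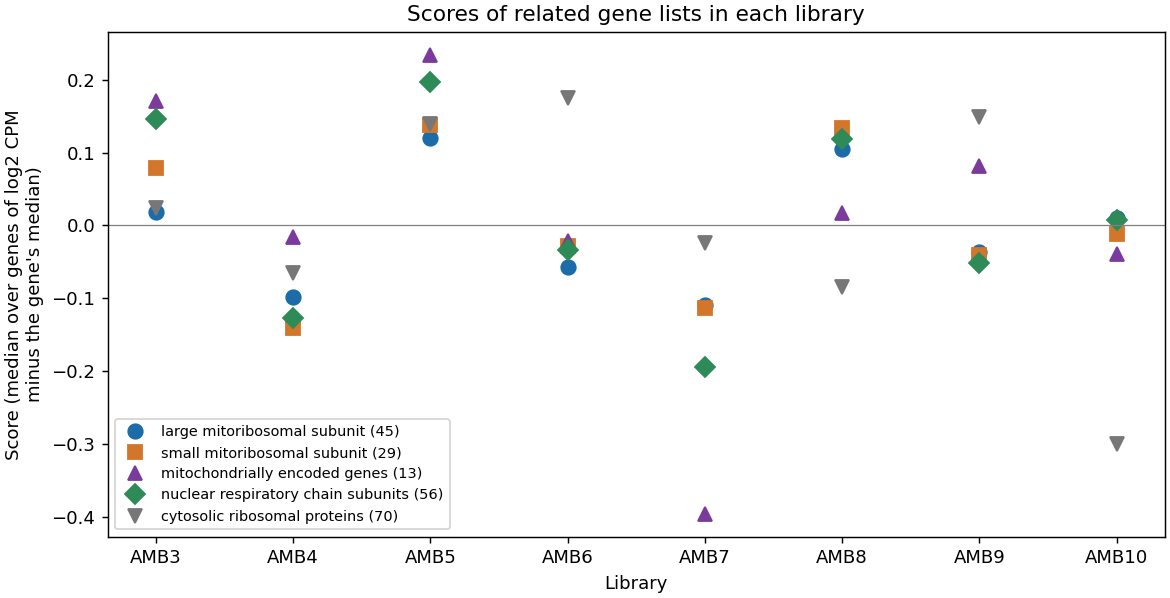
Score (y axis, median over genes of log2 CPM minus the gene's own median) in each library (x axis) for the large (45) and small (29) mitoribosomal subunit, 13 mitochondrially encoded genes, 56 nuclear respiratory chain subunits and 70 cytosolic ribosomal proteins. The nuclear respiratory chain and both mitoribosomal subunits lie on the same side of 0 in 7 of 8 libraries, while the cytosolic ribosomal proteins lie on the other side in AMB6, AMB8 and AMB9.

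Levels of cell type markers also differed between the libraries, and some marker lists had their extremes in the same libraries as the mitoribosomal score. The excitatory neuron list (5 of 5 markers tested, 2829 to 4492 CPM summed) had its highest scores in AMB5 (0.42) and AMB8 (0.37), the libraries of highest mitoribosomal score, but stood at -0.35 in AMB3. Its markers did not move together. In AMB8, CAMK2A, SLC17A7 and NEUROD6 lay above their medians. NRGN (565 CPM against a median of 709.6) and TBR1 (16.2 against 48.9) lay below theirs. In AMB5 only CAMK2A lay below its median (1136 against 1154 CPM). The meninges list (5 of 5, 84.9 to 462 CPM summed) was lowest in AMB8 (-1.48) and AMB5 (-1.03) and highest in AMB4 (1.05) and AMB7 (0.99), the libraries of lowest mitoribosomal score. In AMB3 (0.71) and AMB6 (-0.71) it lay on the same side of 0 as the mitoribosomal score (0.04 and -0.04). The microglia list (3 of 3, 49.7 to 114 CPM summed) was lowest in AMB8 (-1.001) and AMB5 (-0.38), and stood at 0.33 in AMB4, -0.07 in AMB7 and 0.36 in AMB6. The part of these cells in the mitoribosomal score was not tested. Of the other lists, myelinating oligodendrocyte (7 of 7, 756 to 4783 CPM summed), astrocyte (6 of 6, 2810 to 6159 CPM) and hippocampal markers (5 of 5, 257 to 879 CPM) had their highest scores in AMB10, where the mitoribosomal score was close to 0. Hippocampal markers scored 1.61 in AMB10 and nearly as high in AMB8 (1.59), and were lowest in AMB5 (-0.89) and AMB7 (-0.85). NEUROD6 is in both the hippocampal and the excitatory neuron list. Interneuron markers (4 of 4, 286 to 679 CPM) were lowest in AMB8. Endothelial markers (4 of 4, 118 to 177 CPM) had their highest score in AMB4 (0.27) and their lowest in AMB7 (-0.34). Choroid plexus markers summed to 6.30 to 28.2 CPM, with TTR at 2.47 CPM or less and at 0 in AMB5, and red blood cell markers (2 of 3) to 22.9 to 116 CPM.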

How the data were processed

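RNA-seq of 8 fetal baboon hippocampus libraries was used. The deposited table gives for each gene a raw value, an estimated count per RefSeq gene per the file headers, and a normalized value on a log2 scale made by the authors. Between 22.5% and 26.7% of the estimated counts above 0 were whole numbers (tolerance 0.001), and all were rounded here. The submitters' processing notes name DESeq with no version. For the aligner, the counter, its use of strand and the genome build, the entry is: not given in the sources used here. The coordinates of all 74 members equal those of the RefSeq gene table of Panubis1.0. The deposited log2 values of the members differed by at most 0.07 from those computed here, and their baseline is the median of AMB3, AMB8 and AMB10.

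Genes were kept by filterByExpr in edgeR 4.0.16 (R 4.3.3) (minimum count 10, no grouping), and library sizes were scaled by TMM over the whole table. Log2 CPM used a prior count of 2, which lowers the range of genes with few counts. At library totals of 40404878 to 71648654 counts, counting error weighs most on MRPS24. Poisson intervals cover counting error only, and were computed for MRPS24, MRPL14, MRPL36, MRPL42 and MRPS34 but not for the members of narrow range. The counts of every pair of libraries differed beyond sampling noise (chi-square per degree of freedom of 41.3 in the closest pair, AMB4 and AMB9). No column of another sample was found.

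No library had a group label, so no test between groups was run, and each library's value or the lowest, median and highest are given. Described singly are, in each subunit, the 5 members of highest median CPM, the 5 of largest and the 2 of smallest range, with the MRPS18 paralogs, the stalk proteins MRPL10, MRPL11 and MRPL12, MRPS30, MRPS36 and MRPL58. In each other gene list they are the 2 of highest CPM and the 1 of largest range. MRPL16 is described because of 1 library, and it and the genes named for their peak in AMB6 were chosen after their values were seen. The members and lists were chosen with earlier results of these data known. The scripts were tested on simulated data. Alternatives were plain library totals, DESeq2 1.42.0 size factors, the deposited log2 values, no filter, another prior count, the mean over members, unrounded counts, subunits by structure, and leaving out each library. Levels per transcript length were not computed, since no transcript lengths were used here.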

Additional observations from a re-analysis of the deposited data

Results flagged for a closer look

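Of 78 results with a value in all 8 libraries (the 74 members, the scores of all members, of the large and of the small subunit, and their difference), 2 had a single library far from the others. Chance alone gives about 1 in 20, so 2 of 78 is not above that rate. The share over all tested genes was not computed. In MRPL16 the lowest library, AMB10 at 36.0 CPM, was separated from the next by 0.529 of the whole range, and in MRPS34 the highest library, AMB6 at 65.9 CPM, was separated by 0.550, both above Dixon's 95% critical value for 8 samples.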

How the results depend on the processing

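Every score span moved by less than the standard deviation of its score over the libraries. It was 0.22 to 0.26 for all members, 0.21 to 0.24 for the large and 0.24 to 0.29 for the small subunit over the other settings, and 0.20 to 0.23, 0.19 to 0.23 and 0.24 to 0.28 with 1 library left out. The span of large minus small was 0.07 to 0.11 over the settings and 0.08 to 0.12 with 1 library left out. With the main settings it was 0.10, at a standard deviation of 0.03 over the libraries, so its size depended more on the settings. The number of members with a range of at least 0.5 was 21 to 27, and 19 to 27 with 1 library left out. The number with a range of at least 1 was 2, and 1 to 2 with 1 library left out: it was 1 without AMB3 or AMB4, since MRPS24 rests on them, and 1 without AMB5 or AMB6, since MRPL14 rests on those. It was 0 when the other rows of the same protein were added, which brought the range of MRPL14 to 0.40 and that of MRPS24 to 0.39. The number of members highest in AMB5 was 12 on plain library totals, against 26 with TMM and 27 with DESeq2 size factors. For AMB8 it was 24 on plain library totals, 16 with TMM and 12 with DESeq2 size factors. The median rho of members was 0.33 on plain totals and 0.29 to 0.39 with 1 library left out. The highest score of all members was in AMB8 on plain totals and with the mean over members, and in AMB5 under each of the other settings with 8 libraries. Summing rows, leaving out the 23 members that overlap a tested gene or share counts with another row (51 kept), and the settings for the highest and lowest library were added after seeing the data. The level per length was not run. No paired analysis was possible because the labels give no groups and no replicate numbers. The depth limits MRPS24 most, at 14 to 35 counts. MRPS18C had 247 to 465 counts, and how far counting error adds to its range of 0.28 was not computed.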
